A study of Homo sapiens with 6 samples.

Results

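CD44 was measured by 13 of the 54675 probe sets of the Affymetrix Human Genome U133 Plus 2.0 array, namely every probe set annotated to CD44 and to no other gene. No probe set was annotated to CD44 together with another gene. The cells were DLD1, a colorectal adenocarcinoma line, given DMSO vehicle (3 arrays) or 10 µM SAH-BCL9B (3 arrays) for 12 h. SAH-BCL9B is a hydrocarbon-stapled peptide modelled on the helix of BCL9 that binds beta-catenin, so the comparison asks how gene expression differs when that peptide is present. Both groups are the same line, the labels call the cultures triplicates, and neither a control peptide nor another line is part of the design. The labels do not say whether the cultures were set up separately, so the spread between arrays may be technical. CD44 was singled out with its lower level after SAH-BCL9B already known from these arrays, so its changes are given as a description, with errors and without a p-value. Those values chose the gene and support nothing beyond themselves.

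CD44 is a single-pass membrane glycoprotein and the main cell surface receptor for hyaluronan, a long sugar polymer of the extracellular matrix. Its outer part binds hyaluronan, its stem is lengthened by variable exons that epithelial cells splice in or out, and its short inner tail is tied to the actin cytoskeleton through ezrin, radixin and moesin. In the intestine CD44 is known as a target of beta-catenin and TCF factors, it is made at the base of the crypt, and it is widely used as a surface marker of colorectal tumour cells.

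CD44 lies on chromosome 11 from 35139171 to 35232402 in GRCh38.p14. Its proximal promoter is shown because the complex that SAH-BCL9B is directed against acts on target genes through DNA-bound TCF factors. These are the 250 bases before the gene's start in RefSeq, chr11:35138921-35139170 on the plus strand, with matches to the GC box in capitals.
CD44 promoter: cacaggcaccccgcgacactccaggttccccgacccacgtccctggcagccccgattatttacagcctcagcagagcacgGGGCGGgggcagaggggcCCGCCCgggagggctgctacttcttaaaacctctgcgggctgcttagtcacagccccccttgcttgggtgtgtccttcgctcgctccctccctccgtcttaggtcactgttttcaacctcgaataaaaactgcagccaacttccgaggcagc
Of this window 62.4% was G or C, against a median of 58% over 35116 promoter windows of the same length. The GC box, GGGCGG on either strand, matched at 2 places, the first starting 170 bases before the gene's start, and 42.6% of all windows held it. The core of the TCF/LEF motif, CTTTG on either strand, had no match in this window, and 42.1% of all windows held it. The AP-1 letters TGANTCA and the TATA letters TATAAA also had no match, against 6.57% and 10.7% of all windows. These motifs overlap no other motif searched, and distant elements were not analysed here.

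The annotation names a source record for most probe sets but no position in the CD44 transcript, so exons, variable exons and the 3' end could not be assigned to single probe sets. Probe sets are therefore described by signal and by the ending of their name. In the maker's scheme, _at marks a probe set designed to be unique, _s_at one whose probes are shared by several transcripts, and _x_at one with probes that may also bind unrelated transcripts. A log2 level also depends on how well each probe binds, so the order of levels below is an order of signal and not of transcript amount. Array medians ran from 6.58 to 6.62. The ACTB 3' minus 5' control difference, a sign of RNA integrity and labelling, was 1.21 to 1.38 (log2) in vehicle and 1.20, 0.74 and 1.33 in SAH-BCL9B 1, 2 and 3 (exact permutation test, two-sided p = 0.4, smallest possible 0.1). SAH-BCL9B 2 stood apart with the lowest of these values. All 8 markers of colon epithelium in a fixed list lay above the 6.60 at which the vehicle levels of all probe sets have their median, with EPCAM at 14.44. With the peptide 2 of the 8 changed, VIL1 by -0.86 ± 0.09 and KRT8 by 0.50 ± 0.08 (SE, limma adjusted p = 0.00303 and 0.0113), and their part in the CD44 values was not tested. KRT8 missed the threshold without vehicle 1 (adjusted p = 0.0527). Vehicle levels above 6.60 were found for 0 of 3 blood cell markers measured here, 1 of 4 fibroblast markers (COL1A1) and 1 of 3 endothelial markers (PECAM1). None of the blood cell, fibroblast or endothelial markers passed in limma's test.

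CD44 signal was lower after SAH-BCL9B in each of the 8 bright probe sets and not, as a group, in the 5 dim ones. Bright here means a vehicle mean above 6.60, the median vehicle level of all 54613 non-control probe sets. In the 8 bright probe sets the change, SAH-BCL9B minus vehicle on the log2 scale, ran from -0.78 to -0.21 with a median of -0.44. In the 5 dim probe sets it ran from -0.32 to 0.21 with a median of 0.08. Over all non-control probe sets the median change was 0.01, and 46.8% had a negative change. Because the arrays hold RNA of whole cultures, fewer CD44-expressing cells and less CD44 RNA per cell cannot be told apart.

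**Figure D1:**
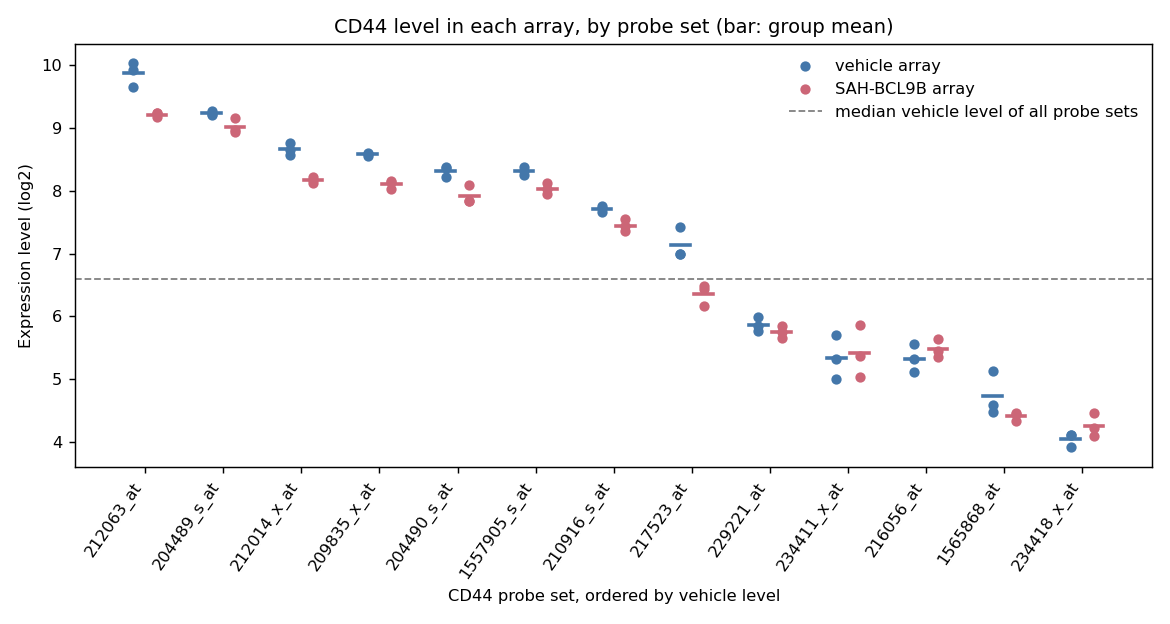
Log2 expression level (y axis) of each of the 13 CD44 probe sets (x axis, ordered by vehicle level) in every array, with vehicle arrays in blue, SAH-BCL9B arrays in red, a bar at each group mean and a dashed line at the median vehicle level of all probe sets (6.60). In the 8 probe sets left of the point where the vehicle means cross the dashed line, every SAH-BCL9B array lies below every vehicle array. Of all probe sets with a vehicle mean above that line, 15.2% are lower without overlap.

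The brightest probe set, 212063_at, read 9.93, 10.03 and 9.65 in vehicle 1, 2 and 3 and 9.24, 9.17 and 9.24 in SAH-BCL9B 1, 2 and 3. The groups did not overlap, and the SAH-BCL9B arrays lay closer together (SD 0.04, n = 3) than the vehicle arrays (SD 0.20, n = 3). The change was -0.66 ± 0.11 (limma's moderated SE), a level 1.58-fold lower. With a vehicle mean of 9.87 this probe set was brighter than 84.1% of all probe sets, and it was the brightest CD44 probe set in each of the 6 arrays.

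The largest change belonged to a much dimmer probe set, 217523_at, the last above the line. It read 7.42, 7.00 and 6.99 in vehicle 1, 2 and 3 and 6.43, 6.16 and 6.48 in SAH-BCL9B 1, 2 and 3. Vehicle 1 stood above the other two vehicle arrays, and no SAH-BCL9B array reached the lowest vehicle array. The change was -0.78 ± 0.15 (SE), or 1.71-fold. Without vehicle 1 it was -0.64, close to the -0.63 of 212063_at. With the ACTB control difference as a covariate the changes were -0.63 for 217523_at and -0.61 for 212063_at. Its vehicle mean of 7.13 was above 57.8% of all probe sets, and its mean after SAH-BCL9B, 6.36, was below the median vehicle level.

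The pair of bright _x_at probe sets gave nearly equal levels and changes. Probe set 212014_x_at read 8.76, 8.56 and 8.65 in vehicle 1, 2 and 3 and 8.22, 8.17 and 8.13 in SAH-BCL9B 1, 2 and 3, a change of -0.49 ± 0.09 (SE). Probe set 209835_x_at read 8.56, 8.60 and 8.58 against 8.13, 8.15 and 8.03, a change of -0.48 ± 0.08 (SE). Both put the SAH-BCL9B arrays 1.40-fold or 1.39-fold below vehicle, without overlap, and their vehicle means of 8.66 ± 0.10 and 8.58 ± 0.02 (SD, n = 3) did not differ beyond their spread. The name ending says that their probes may bind other transcripts too.

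The 4 bright _s_at probe sets, whose probes match several transcripts, showed smaller differences. Probe set 204489_s_at, the second brightest, read 9.23, 9.28 and 9.21 in vehicle 1, 2 and 3 and 8.94, 9.17 and 8.97 in SAH-BCL9B 1, 2 and 3. SAH-BCL9B 2 came within the width of the vehicle spread of the lowest vehicle array, and the change, -0.21 ± 0.09 (SE), was the smallest of the 8. Probe set 204490_s_at read 8.36, 8.38 and 8.22 against 8.10, 7.83 and 7.84, a change of -0.40 ± 0.10 (SE).

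Probe set 1557905_s_at read 8.38, 8.31 and 8.26 in vehicle 1, 2 and 3 and 8.03, 7.94 and 8.13 in SAH-BCL9B 1, 2 and 3, a change of -0.28 ± 0.09 (SE). Its vehicle mean of 8.32 ± 0.06 did not differ beyond the spread from that of 204490_s_at, 8.32 ± 0.08 (SD, n = 3). Probe set 210916_s_at read 7.72, 7.76 and 7.66 against 7.36, 7.43 and 7.55, a change of -0.27 ± 0.09 (SE). In each of these 4 probe sets the groups were separate, by gaps that were small beside those of 212063_at and the _x_at pair.

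The 5 dim probe sets gave no common direction. Probe set 229221_at read 5.77, 5.84 and 5.98 in vehicle 1, 2 and 3 and 5.76, 5.84 and 5.65 in SAH-BCL9B 1, 2 and 3, and the groups overlapped (change -0.11 ± 0.10, SE). Probe set 216056_at read 5.11, 5.56 and 5.32 against 5.45, 5.65 and 5.35, again with overlap (0.16 ± 0.14, SE). Its vehicle mean of 5.33 ± 0.22 and that of 234411_x_at, 5.34 ± 0.36 (SD, n = 3), did not differ beyond their spread.

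Probe set 234411_x_at was the most variable of the 13, at 5.31, 5.00 and 5.71 in vehicle and 5.03, 5.86 and 5.36 in SAH-BCL9B 1, 2 and 3. Its change was 0.08 ± 0.24 (SE), and the sign turned without vehicle 2 (-0.09) or SAH-BCL9B 2 (-0.14) and with the ACTB control difference as a covariate (-0.16). Probe set 234418_x_at, which shares its source record, was the dimmest at 4.11, 3.91 and 4.11 against 4.46, 4.09 and 4.22, with overlap and a change of 0.21 ± 0.12 (SE).

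Of all probe sets at or below the median level, 10.1% had groups without overlap, in either direction. Probe set 1565868_at was the only dim CD44 probe set whose groups did not overlap. It read 5.12, 4.59 and 4.47 in vehicle 1, 2 and 3 and 4.44, 4.33 and 4.46 in SAH-BCL9B 1, 2 and 3. Vehicle 1 was far above the other vehicle arrays, and SAH-BCL9B 3 lay just under vehicle 3. The change was -0.32 ± 0.17 (SE), and it was -0.12 without vehicle 1. Its level was above 18.7% of all probe sets, and signal over background is not known for these arrays.

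Of the 13 probe sets, 10 had a negative and 3 a positive change. The SAH-BCL9B arrays lay below the vehicle arrays without overlap in 9, against 9.73% of all probe sets, and in none did they lie above, against 12.3%. With limma and Benjamini-Hochberg adjustment over 54613 probe sets (2.5% called in either direction), 4 of the 13 were called lower at 0.05, against 1.37% of all probe sets, and 0 higher, against 1.12%. At an unadjusted p of 0.05 limma called 7 lower and 0 higher, and the share of all probe sets at that p was not taken. The 4 were 212063_at, 217523_at, 212014_x_at and 209835_x_at, and 2 of them, 212063_at and 217523_at, were at least 1.5-fold lower (0.87% of all probe sets). The contrast is the one CD44 was chosen on, the 13 share the same 6 RNA samples, and nothing is read from these counts.

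The number called lower depended on the arrays. It was 0 when vehicle 1 or 2 or SAH-BCL9B 1 or 3 was left out, 1 without vehicle 3 and 2 without SAH-BCL9B 2. Over all probe sets the number called in either direction moved too, from 1363 to 97, 141, 214 and 114 without vehicle 1, vehicle 2, SAH-BCL9B 1 and SAH-BCL9B 3, to 357 without vehicle 3 and to 1478 without SAH-BCL9B 2. For CD44 it was 1 with vehicle 3 and SAH-BCL9B 2 both left out, or with the ACTB covariate, and 5 with the filter on low values. The size of the change moved less: that of 212063_at ran from -0.77 to -0.58 over the sets with 1 array left out.

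**Figure D2:**
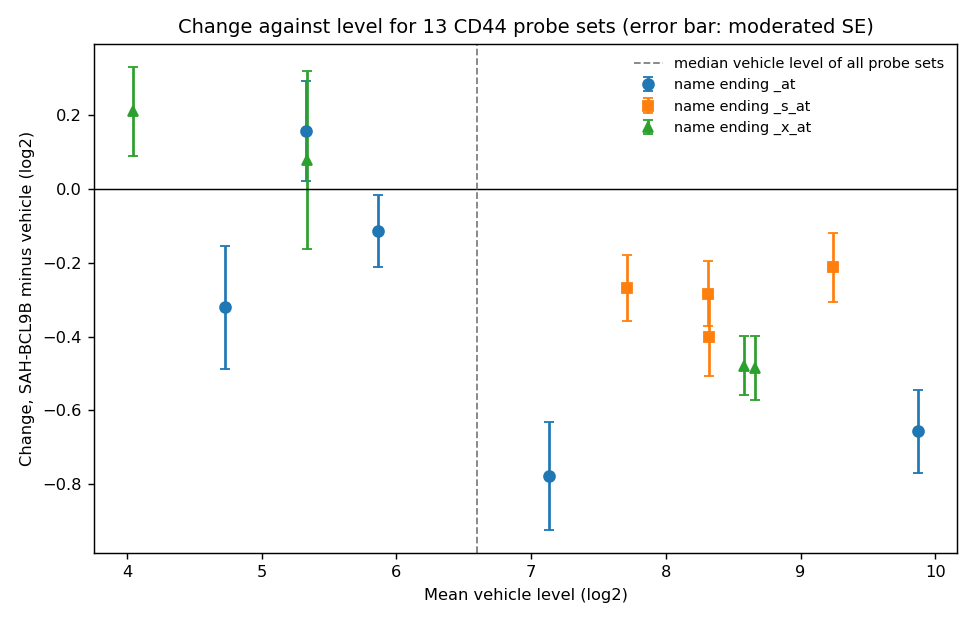
Change on the log2 scale (y axis, SAH-BCL9B minus vehicle, error bars limma's moderated SE) against mean vehicle level (x axis, log2) of the 13 CD44 probe sets, with a symbol for each name ending and a dashed line at the median vehicle level of all probe sets. To the right of the dashed line all 8 changes lie below 0, from -0.78 to -0.21, and to its left 3 of 5 lie above 0.

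Bright and dim probe sets disagreed within the same arrays. Averaged over the 8 bright probe sets, each first centred on its vehicle mean, the SAH-BCL9B arrays stood at -0.43, -0.48 and -0.43, and the vehicle arrays at 0.07, 0.01 and -0.08. Averaged over the 5 dim ones, the SAH-BCL9B arrays stood at -0.03, 0.09 and -0.05, within the vehicle values of 0.02, -0.08 and 0.06 except for SAH-BCL9B 2 above them. The bright average was thus 1.36-fold lower after SAH-BCL9B, while the dim average differed by 0.0018.

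The gap between bright and dim, taken inside each array, changed by -0.45, from -0.13 to 0.09 in vehicle and -0.57 to -0.38 in SAH-BCL9B. With the line moved up to the 75th percentile of all vehicle levels, which leaves only 212063_at and 204489_s_at above it, the gap changed by -0.19. The mean of all 13 probe sets was 7.21, 7.14 and 7.14 in vehicle and 6.89, 6.91 and 6.88 in SAH-BCL9B, a change of -0.27 that lies between the bright and dim values.

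**Figure D3:**
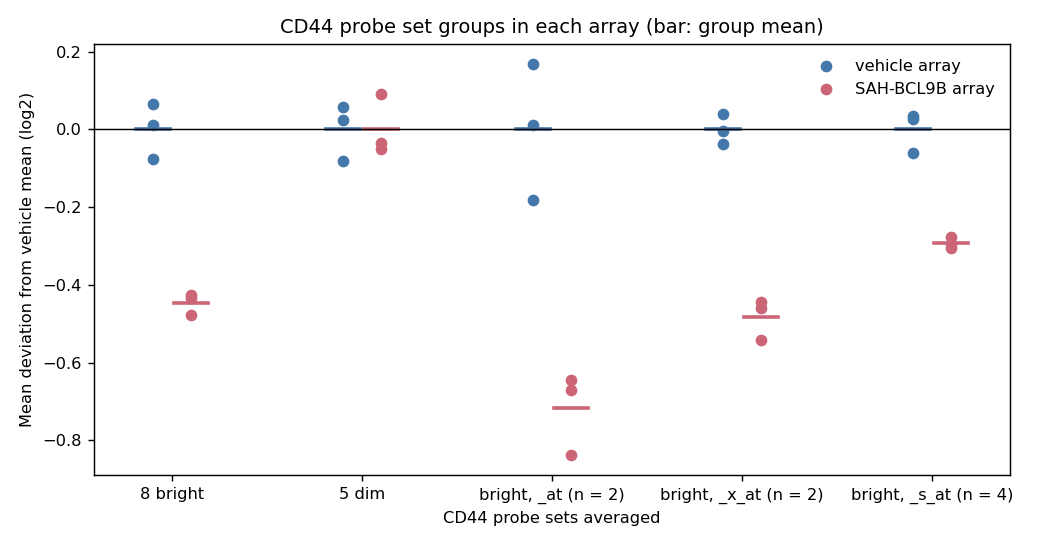
Mean deviation from the vehicle mean (y axis, log2) in each array for the 8 bright and the 5 dim CD44 probe sets, and for the bright ones split by name ending, with vehicle arrays in blue, SAH-BCL9B arrays in red and bars at group means. The dim groups overlap, while the bright groups are apart, widest for _at (mean -0.72) and least for _s_at (mean -0.29).

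Within the bright probe sets, level did not order the change: Pearson's r between vehicle level and change was 0.13 over those 8 probe sets, and -0.69 over all 13 (Spearman's rho -0.62), as a description over probe sets that share their arrays. Averages by name ending were further apart. The _at probe sets averaged -0.67, -0.84 and -0.64 in the SAH-BCL9B arrays (mean of 2 probe sets), the _x_at probe sets -0.44, -0.46 and -0.54 (mean of 2), and the _s_at probe sets -0.29, -0.30 and -0.28 (mean of 4). These averages do not meet in any SAH-BCL9B array, but single probe sets of different endings do: in SAH-BCL9B 2, 204490_s_at read 7.83 against a vehicle mean of 8.32, a drop like that of 212014_x_at, from 8.66 to 8.17.

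The difference between 2 probe sets in the same array shows the disagreement most directly. The brightest, 212063_at, exceeded 204489_s_at by 0.70, 0.76 and 0.45 in vehicle 1, 2 and 3, and by 0.31, 0.0047 and 0.27 in SAH-BCL9B 1, 2 and 3, so the signal gap narrowed by a mean of 0.44 with no overlap. Between 217523_at and 212063_at the gap was -2.51 to -3.04 in vehicle and -2.75 to -3.01 in SAH-BCL9B, with overlap. Between the _x_at pair it was -0.04 to 0.20 and 0.02 to 0.10. The gap between 212063_at and 204489_s_at was narrowest in SAH-BCL9B 2, the array with the low ACTB control difference, and without it their changes were -0.63 and -0.28. No cause of the disagreement was tested.

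The range of changes in CD44 can be set beside that of other genes with many probe sets, as a description alone, since CD44 was chosen for its change in this contrast. Among 39 genes with at least 10 probe sets, the range from the lowest to the highest change was 0.99 in CD44, the second widest, against a median of 0.57. Of the CD44 probe sets 76.9% had the sign of the brightest, against a median of 70% over the 39 genes. In 33 of these genes some probe sets were bright and some dim, and in 21 of the 33 the bright ones had the larger mean change in absolute size. Over the 27306 probe sets above the median level 2.58% were called lower, and over the 27307 at or below it 0.165%.

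Genes that work with CD44, or are used beside it as markers, were taken from lists chosen by role. The lists held ligand, receptor, linker, protease, splicing and surface marker genes. Of 59 measured genes, each by its brightest probe set, 5 fell and 3 rose in limma's test (13.6% called, against 6.93% of 19775 genes; 3.43% of genes were called lower and 3.49% higher), and 51 did not pass. The lists were chosen with earlier results of these data known, so nothing is read from the share called. The median change was 0.0031, beside 0.02 over all genes. The number past the threshold was 4 without vehicle 1, vehicle 2 or vehicle 3, 5 without SAH-BCL9B 1 or SAH-BCL9B 3 and 7 without SAH-BCL9B 2. Of all genes, 1370 in the full set, 316, 518 and 692 passed without vehicle 1, 2 and 3, and 514, 1426 and 522 without SAH-BCL9B 1, 2 and 3. Without adjustment, limma called 8 of the 59 genes lower and 10 higher at p under 0.05. Hyaluronan turnover genes gave 1 lower and 4 higher of these, and sheddase and gamma-secretase genes 0 and 3. Membrane partners gave 2 lower and 0 higher, and other hyaluronan receptors and splicing regulators 1 and 0 each. The share of all genes at that p was not taken, so nothing is read from these counts.

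Hyaluronan turnover genes moved in both directions. Of 7 measured genes 1 fell and 1 rose, with a median change of 0.23. HAS1 and HYAL1, also on the list, were not measured by a probe set naming them alone. CEMIP, a protein needed for hyaluronan breakdown, fell 2.20-fold, from 11.61 ± 0.13 with vehicle to 10.48 ± 0.11 with the peptide (SD, n = 3; change -1.14 ± 0.10, SE, limma adjusted p = 0.00137), and both of its probe sets were lower. CEMIP2, a related membrane protein that degrades hyaluronan at the cell surface, rose by 0.50 ± 0.11 (limma adjusted p = 0.0385), and missed the threshold without any 1 array except SAH-BCL9B 3 (highest adjusted p = 0.153). The hyaluronan synthase gene HAS3 had a change of 0.32 ± 0.08 and did not pass (limma adjusted p = 0.0537; the alternatives gave 0.0158 to 0.454). Of its 2 probe sets 1 had the opposite sign.

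Among 7 other hyaluronan receptors and binding proteins 1 fell and none rose (median -0.06). This was HMMR, which encodes a hyaluronan-binding protein that also sits on the mitotic spindle, at 12.37 ± 0.04 with vehicle and 11.69 ± 0.13 with the peptide (SD, n = 3), a change of -0.68 ± 0.09 (SE, limma adjusted p = 0.00587). The endothelial receptors LYVE1 and STAB2 lay below the median level, at 5.53 and 5.88 in vehicle, while STAB1 lay above it at 7.54. None of 4 other CD44 ligand genes passed in limma's test, nor at an unadjusted p of 0.05 (median change 0.0040), among them SPP1, which encodes osteopontin (vehicle level 4.30).

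The linkers to the cytoskeleton did not pass either, 0 of 7 in limma's test, with a median change of 0.04. At an unadjusted p of 0.05 limma called 2 higher and 0 lower, and the share of all genes at that p was not taken. EZR, which encodes ezrin, stood at 12.05 ± 0.09 with vehicle and 12.11 ± 0.01 with the peptide (SD, n = 3), and the groups overlapped. NF2, which encodes merlin and competes with ezrin for the CD44 tail, had the largest value of the list, 0.40 ± 0.10 (SE, limma adjusted p = 0.0544), with 4 of its 8 probe sets negative. A missed threshold does not show that these levels were equal.

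Of 5 membrane partners 1 fell. SLC7A11, the cystine transporter that CD44 variant forms are known to stabilise, fell 1.75-fold, with -0.81 ± 0.08 (SE, limma adjusted p = 0.0028) and all 3 probe sets lower. MET, the receptor for hepatocyte growth factor, had -0.06 ± 0.07 (limma adjusted p = 0.717). Of 9 sheddase and gamma-secretase genes, which cut CD44 outside and within the membrane, 1 rose and none fell (median 0.20). It was PSENEN, a gamma-secretase subunit, with 0.52 ± 0.11 (SE, limma adjusted p = 0.0277), which missed the threshold when any vehicle array or SAH-BCL9B 3 was left out (highest adjusted p = 0.116). The sheddase gene ADAM10 stood at 13.20 in vehicle and had -0.02 ± 0.07 (limma adjusted p = 0.923).

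Of 13 measured splicing regulators known to act on the variable exons of CD44, 1 fell and none rose (median -0.07). ESRP2, also on the list, was not measured by a probe set naming it alone. ESRP1, the epithelial splicing regulator that promotes inclusion of those exons, went from 10.90 ± 0.07 in vehicle to 10.10 ± 0.06 in SAH-BCL9B (SD, n = 3), 1.73-fold lower, with a change of -0.79 ± 0.08 (SE, limma adjusted p = 0.00249). Both of its probe sets were lower, and it passed in all 15 alternatives (highest adjusted p = 0.0317). KHDRBS1, SRSF1 and HNRNPM, other regulators of these exons, had values of 0.05, 0.06 and -0.07 and did not pass. Which CD44 exons were spliced in cannot be read from these probe sets.

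Of 7 surface markers used beside CD44 in colorectal cancer 1 fell and 1 rose in limma's test. At an unadjusted p of 0.05 limma called 3 lower and 1 higher, and the share of all genes at that p was not taken. CD24, a small mucin-like glycoprotein, fell by 0.57 ± 0.11 on the log2 scale (SE, limma adjusted p = 0.0227), with all 6 probe sets lower. ALCAM, an adhesion molecule, rose by 0.33 ± 0.08 (SE, limma adjusted p = 0.0402). CD24 missed the threshold without any 1 array except SAH-BCL9B 2 (highest adjusted p = 0.0897), and ALCAM without any of the 6 (highest 0.157) and with the mean of all its probe sets (0.43). PROM1 and LGR5, markers of stem-like cells, had -0.37 ± 0.11 and -0.27 ± 0.08 and did not pass (limma adjusted p = 0.0801 and 0.0928). PROM1 had 1 probe set, below the median level at 6.42 in vehicle. ITGB1 and ITGA6 had 0.13 ± 0.09 and -0.03 ± 0.09 and did not pass (limma adjusted p = 0.479 and 0.921). EPCAM had 0.16 ± 0.12 and did not pass (limma adjusted p = 0.517).

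**Figure D4:**
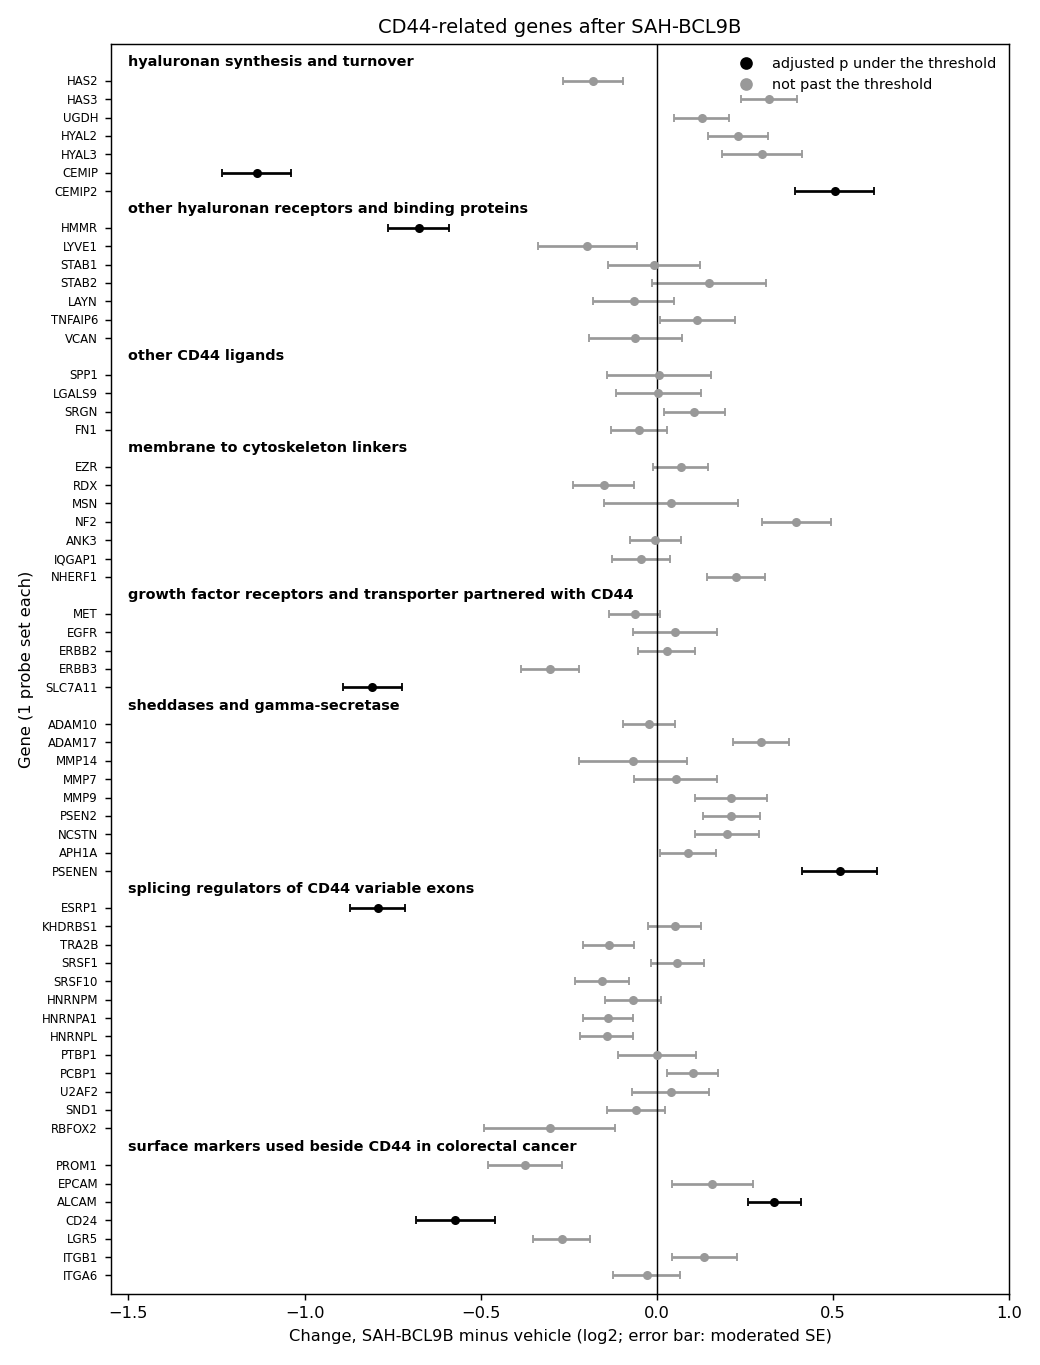
Change on the log2 scale (x axis, SAH-BCL9B minus vehicle, error bars limma's moderated SE) of 59 genes that act with CD44 or are used beside it as markers (y axis, grouped by role), with genes past an adjusted p of 0.05 in black and the others in grey. CEMIP, SLC7A11, ESRP1, HMMR and CD24 lie to the left in black, and PSENEN, CEMIP2 and ALCAM to the right.

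Of the 3 nearest measured genes on each side of CD44 on chromosome 11, 1 passed the test. On the side before its start, PDHX and APIP had changes of -0.16 ± 0.09 and -0.23 ± 0.09 (SE, limma adjusted p = 0.397 and 0.167). The third on that side, EHF, an epithelial transcription factor of the ETS family, fell 2.58-fold, from 12.65 ± 0.08 in vehicle to 11.28 ± 0.16 in SAH-BCL9B (SD, n = 3; limma adjusted p = 0.00084). On the other side SLC1A2, PAMR1 and FJX1 had -0.04 ± 0.10, 0.07 ± 0.16 and -0.14 ± 0.10 (limma adjusted p = 0.899, 0.864 and 0.516). EHF passed in all 15 alternatives, and none of the other 5 passed in any. No probe set was annotated to the non-coding genes CD44-DT and CD44-AS1.

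Over the 6 arrays, the profiles most like that of 212063_at belonged to RAD51B, WDR72, LINC00339, GRPEL2 and FAM200C. Likeness was the root mean square difference of log2 values, each gene centred on its vehicle mean, over 19073 genes, and it ran from 0.05 for RAD51B to 0.07 for FAM200C, against a median of 0.51. As they were picked for likeness over these same arrays, a similar change and a high correlation were fixed in advance. The changes of the 5 lay between -0.69 and -0.60, and Pearson's r with CD44 over the 6 arrays between 0.98 and 0.99. These values rest on the brightest probe set of each gene. For WDR72 only 1 of 4 probe sets was negative, with a mean change of -0.05 over them. All 4 of RAD51B (mean -0.22) and both of GRPEL2 (mean -0.66) were negative, and LINC00339 and FAM200C had 1 probe set each. Within 0.1 of CD44 there were 44 genes, so these 5 are not set apart from many others.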

How the data were processed

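The authors deposited log2 expression values, 54675 probe sets in each of 6 arrays. Per the submitters' processing notes they used RMA and affy; versions and options: not given in the sources used here, and detection calls were not used. RMA makes arrays alike in distribution and shrinks the changes of dim probe sets. Probe sets were named by GEO's platform annotation, and coordinates and the promoter are RefSeq's for GRCh38.p14, used here for names and position only. Groups and replicate numbers come from array titles.

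All 54613 non-control probe sets were fitted with limma 3.58.1 in R 4.3.3 (with data.table version 1.17.8; lmFit and eBayes, no covariates), adjusted by Benjamini-Hochberg at 0.05. Other genes were fitted as 19775 genes, by the probe set with the highest mean. No filter on low values was set. Plots used matplotlib 3.10.9 in Python 3.11.15. The CD44 gene and the lists were chosen with earlier results of these data known. Genes were named if called in a list (at most 4 per list), if among the 3 nearest protein-coding genes on each side, if among the 5 with the most similar profile, or if EZR, HMMR, HAS3, ESRP1, ADAM10, MET or EPCAM. PROM1, LGR5, ITGB1, ITGA6, VIL1, KRT8, NF2, SPP1, LYVE1, STAB1, STAB2, KHDRBS1, SRSF1 and HNRNPM were added after their values were seen. ESRP2, HAS1 and HYAL1 were named as listed genes without a measurement.

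Tested on simulated data with the real means and spreads, the fit over 54613 probe sets recovered 10 of 100 changes of 0.5 and 57 of 100 changes of 1 (log2), with 3 false calls; over 19775 genes it recovered 33 and 81, with 2. Alternatives were the replicate block, a filter on low values, median centring, quantile normalization, a variance trend with robust fit, array weights, the ACTB covariate, arrays left out, a 1.5-fold minimum, another line between bright and dim, no _x_at probe sets and the mean of a gene's probe sets.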

Additional observations from a re-analysis of the deposited data

How the results depend on the processing

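The change of the brightest CD44 probe set kept its sign in all 14 alternatives (-0.77 to -0.58) and moved by less than the replicate SD. The mean of the 13 probe sets was -0.45 with the filter on low values, which leaves the 8 bright ones, and -0.32 without _x_at probe sets; with 1 array left out it ran from -0.29 to -0.25. The bright minus dim change was -0.19 with the 75th percentile as the line and -0.51 to -0.39 with 1 array left out; the filter left no dim probe set. The 4 CD44 probe sets called lower became 0 with the replicate number as a block, 1 with the ACTB covariate or without vehicle 3 and SAH-BCL9B 2, 2 with a 1.5-fold minimum, 5 with the filter, and 0 to 2 with 1 array left out. The number of CD44-related genes past the threshold, 8, was 13 with array weights or the filter, 4 with the block and 4 to 7 with 1 array left out. Over all genes 1370 passed, and 296 to 2456 over the alternatives; over all probe sets 1363 passed, and 97 to 2923. The array titles give a replicate number and nothing more on pairing. Deviations of same-numbered arrays correlated at 0.41, 0.06 and -0.31. With 3 arrays in a group these values cannot decide whether the arrays were paired. Precision is limited by having 3 arrays in a group, and signal over background is unknown, which limits the dim probe sets most.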
